A study of Homo sapiens with 15 samples.

Results

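The cyclins of the NanoString PanCancer Pathways panel are the genes whose symbols start with CCNA, CCNB, CCND, CCNE or CCNO. The rule found 10 of the 730 endogenous genes, namely CCND1, CCND2, CCND3, CCNE1 and CCNE2, which act in G1 and at entry into S phase, CCNA1, CCNA2, CCNB1 and CCNB3, which act in S phase, G2 and mitosis, and CCNO, which was kept apart from both classes. HCT116 is a human colorectal cancer cell line with a functional p53 gene. It was left untreated as control or exposed for 24 h to the plant quinone thymoquinone (TQ) at 40 µM, to the nucleobase analog 5-fluorouracil (5-FU) at 15 µM, to both together (Combi) with 35 µM of each, or at 35 µM to SARB, a hybrid molecule in which a TQ part and a 5-FU part are joined through an ester. Each of the 5 groups had 3 samples, described as biological replicates. All came from this 1 cell line, doses differ between TQ, 5-FU and Combi, and SARB and Combi form the only pair with a matched dose.

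Cyclins are the regulatory subunits of the cyclin-dependent kinases (CDKs), and their periodic synthesis and destruction order the cell cycle. D-type cyclins answer to growth signals and pair with CDK4 and CDK6, E-type cyclins then activate CDK2 at entry into S phase, cyclin A2 acts through S phase and G2, and cyclin B1 with CDK1 drives entry into mitosis. CCNA2 and CCNB1 are transcribed mainly in the second part of the cycle, and CCND1 is frequently overexpressed in colorectal tumors.

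A promoter comparison is given because CCNA2 and CCNB1 had the highest correlation among the cyclins measured above background, and it shows the 250 bases before each RefSeq transcription start. Promoter entries were held for 7 of the 10 cyclins. Capitals mark a CCAAT box (letters CCAAT, or ATTGG on the other strand) and the cyclic AMP response element TGACGTCA. The CCNA2 window is chr4:121823884-121824133 on the minus strand and the CCNB1 window is chr5:69166900-69167149 on the plus strand, both in GRCh38.p14 and both written 5′ to 3′.
CCNA2: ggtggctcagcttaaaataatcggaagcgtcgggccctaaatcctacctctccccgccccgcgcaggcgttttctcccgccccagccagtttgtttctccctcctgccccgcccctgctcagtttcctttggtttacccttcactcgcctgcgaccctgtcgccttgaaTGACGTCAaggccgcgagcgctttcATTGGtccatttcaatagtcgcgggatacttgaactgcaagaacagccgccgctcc
CCNB1: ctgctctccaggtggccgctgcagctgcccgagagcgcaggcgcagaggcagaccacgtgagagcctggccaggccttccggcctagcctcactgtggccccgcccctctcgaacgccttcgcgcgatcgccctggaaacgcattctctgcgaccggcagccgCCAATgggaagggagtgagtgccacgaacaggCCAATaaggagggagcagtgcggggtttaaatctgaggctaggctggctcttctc

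Both windows held CCAAT boxes. CCNB1 had 2 of them, at bases -87 to -83 and -55 to -51 from the start, and CCNA2 had 1 on the other strand, at -56 to -52, with the cyclic AMP response element at -81 to -74. Over the 35116 promoters of the RefSeq table, cut to the same length and read on both strands, 32.0% held a CCAAT box and 1.65% held TGACGTCA. The E2F site (TTTCCCGC, TTTCGCGC, TTTGCCGC or TTTGGCGC, in 2.79% of promoters), the letters TTTGAA of the cell cycle genes homology region (13.3%) and the TCF/LEF site CTTTGAT (2.26%) were in neither window. None of these motifs overlapped another. The matches describe the letters only, other forms of these sites were not searched, and no binding was measured.

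In the assay, a probe pair with a color barcode binds each transcript and the barcodes are counted without amplification. Counts were scaled to equal geometric means of 40 housekeeping genes, giving scaled counts, which compare 1 gene across samples but not genes with each other, since probes bind with unequal efficiency. Total endogenous counts ranged from 135017 to 607782 per sample. A count was above background when it exceeded the mean of 8 negative probes plus 2 SD, a limit of 6.23 to 26.4 counts. The samples fell into 3 runs, named here by the shared start of their scan files. Run 1 held control 1 with every TQ, 5-FU and SARB sample, run 2 held control 2, control 3 and Combi 1, and run 3 held Combi 2 and Combi 3. Of the 10 markers listed for colon epithelium, the 6 on the panel were above background in all 15 samples, and of 7 fibroblast markers none was. Among the latter, COL1A1 was above background in 13 samples, COL5A1 in 5 and COL6A6 in 1, and COL1A2, COL3A1, PDGFRA and PDGFRB in 0.

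The cyclins split into 6 that were measured above background in all 15 samples (CCND1, CCND3, CCNE1, CCNE2, CCNA2 and CCNB1) and 4 at or near it, against 405 of the 730 genes (55.5%) above it throughout. CCNA1, the germ cell form of cyclin A, had 9 to 30 raw counts and passed background in 10 samples. CCNB3, a B-type cyclin of meiosis, had 7 to 55 counts and passed it in 7 samples. CCNO, known from multiciliated cells, had 6 to 27 counts and passed it in 4 samples, while CCND2, the second D-type cyclin, had 1 to 17 counts and passed it in none. In control none of these 4 was above background in any sample. The limit there was 12.5 to 26.4 counts, against 6.23 to 9.57 in TQ, so passing it is not comparable between groups. The scaled means of CCNA1 (23.3) and CCNB3 (27.0) were highest in control.

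**Figure D1:**
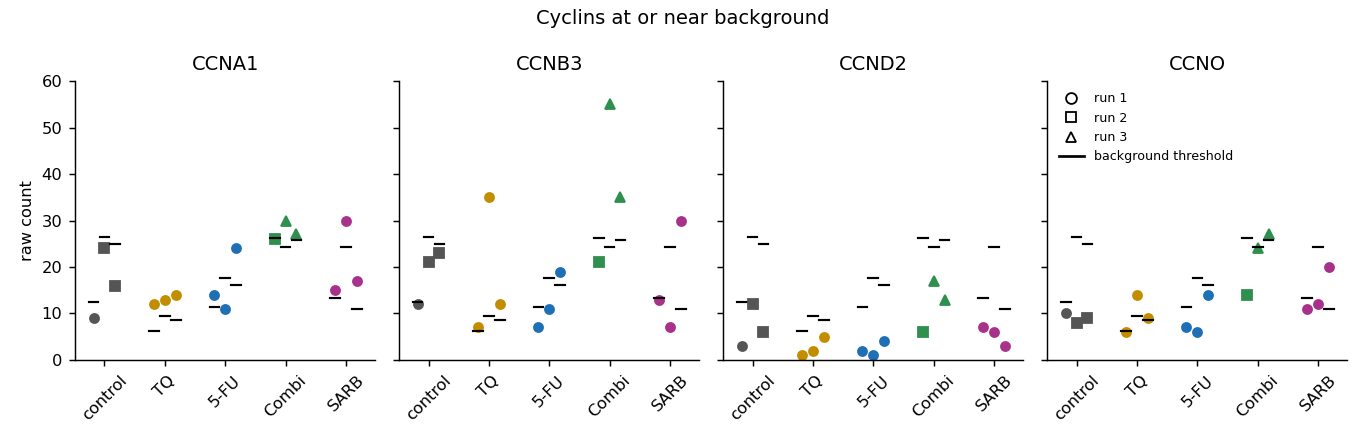
Raw counts of the 4 cyclins at or near background, 1 point per sample, with symbols for the runs and a short black line at each sample's background limit (mean of the negative probes plus 2 SD). CCND2 lies below the limit in all 15 samples, and the highest count of the 4 genes is 55, for CCNB3 in Combi 2.

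Among the 6 cyclins above background, the log2 fold changes of the 2 classes had opposite signs in 5-FU, Combi and SARB. Not every G1 cyclin was called, as CCND1 and CCNE2 were not in Combi, nor CCNE1 and CCNE2 in SARB. CCNB1 and CCNA2 were lower in 5-FU, Combi and SARB, and at least 2 G1 cyclins were higher in each treatment against control. With run as a block, CCNE1 alone was called higher in TQ and in Combi, and 3 G1 cyclins were in 5-FU and in SARB. A gene was called when edgeR's quasi-likelihood test, adjusted over all 730 genes by the Benjamini-Hochberg method, gave a p of at most 0.05 and the change was at least 1.5-fold. These are bulk samples, in which fewer cells expressing a cyclin and less of its RNA per cell cannot be told apart.

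CCNB1 encodes cyclin B1, the mitotic partner of CDK1. Its scaled counts were 3795, 3895 and 3351 in control, 3268, 3249.8 and 3292 in TQ, and 1587, 1524 and 1487 in 5-FU. They were 1293, 1183 and 1092 in Combi and 1231, 1109.7 and 1047 in SARB. All 9 samples of 5-FU, Combi and SARB were thus below every control and TQ sample, and SARB and Combi overlapped each other. The means fell from 3680.5 ± 289.9 (SD, n = 3) in control to 1533 ± 50.2 in 5-FU, 1189 ± 100.3 in Combi and 1129 ± 93.9 in SARB. The log2 fold changes were -1.26 ± 0.10 (SE, edgeR adjusted p = 4.3e-09) in 5-FU, -1.63 ± 0.10 (6.9e-11) in Combi and -1.71 ± 0.11 (3.2e-11) in SARB, which are decreases of 2.40-fold, 3.10-fold and 3.26-fold. With run as a block, the values were -1.31, -1.49 and -1.75 and the calls were kept.

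TQ stood apart in CCNB1. Its mean of 3270.1 ± 21.3 (n = 3) lay just under the lowest control, and the log2 difference of -0.17 ± 0.10 was not called (edgeR adjusted p = 0.19). Its sign depended on the scaling, since TMM, a scaling that sets most genes to no change, gave 0.28.

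CCNA2 encodes cyclin A2, the partner of CDK2 and CDK1 in S phase and G2. It had 2035, 2592 and 2059 scaled counts in control, 1765, 1903 and 1796 in TQ, and 1255, 1198 and 1223 in 5-FU. It had 1352, 1062 and 1050.3 in Combi and 1075, 1105 and 1263 in SARB. The latter 3 treatments overlapped one another and lay below all control and TQ samples. Against the control mean of 2229 ± 315 (n = 3), the log2 fold change was -0.86 ± 0.12 in 5-FU (edgeR adjusted p = 1.1e-05), -0.95 ± 0.12 in Combi (2.6e-06) and -0.96 ± 0.12 in SARB (3.0e-06), or decreases of 1.82-fold, 1.93-fold and 1.94-fold. These calls were kept with run as a block (-0.73, -0.78 and -0.82). In TQ the log2 difference was -0.29 (adjusted p = 0.064, not called) and 0.17 after TMM normalization.

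Of the remaining S and G2/M cyclins, CCNB3 was called lower in SARB at a log2 fold change of -1.27 (edgeR adjusted p = 0.021), from 12, 21 and 23 raw counts in control and 13, 7 and 30 in SARB. None of the 3 control samples and 1 of the 3 SARB samples was above background. The call was lost with TMM normalization (-0.86), with run as a block (-0.72) and with background subtraction (-1.05). It was also lost with the tests DESeq2 (-0.85) and limma, and without control 2, control 3 or SARB 1 (-1.24, -1.06 and -1.27).

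**Figure D2:**
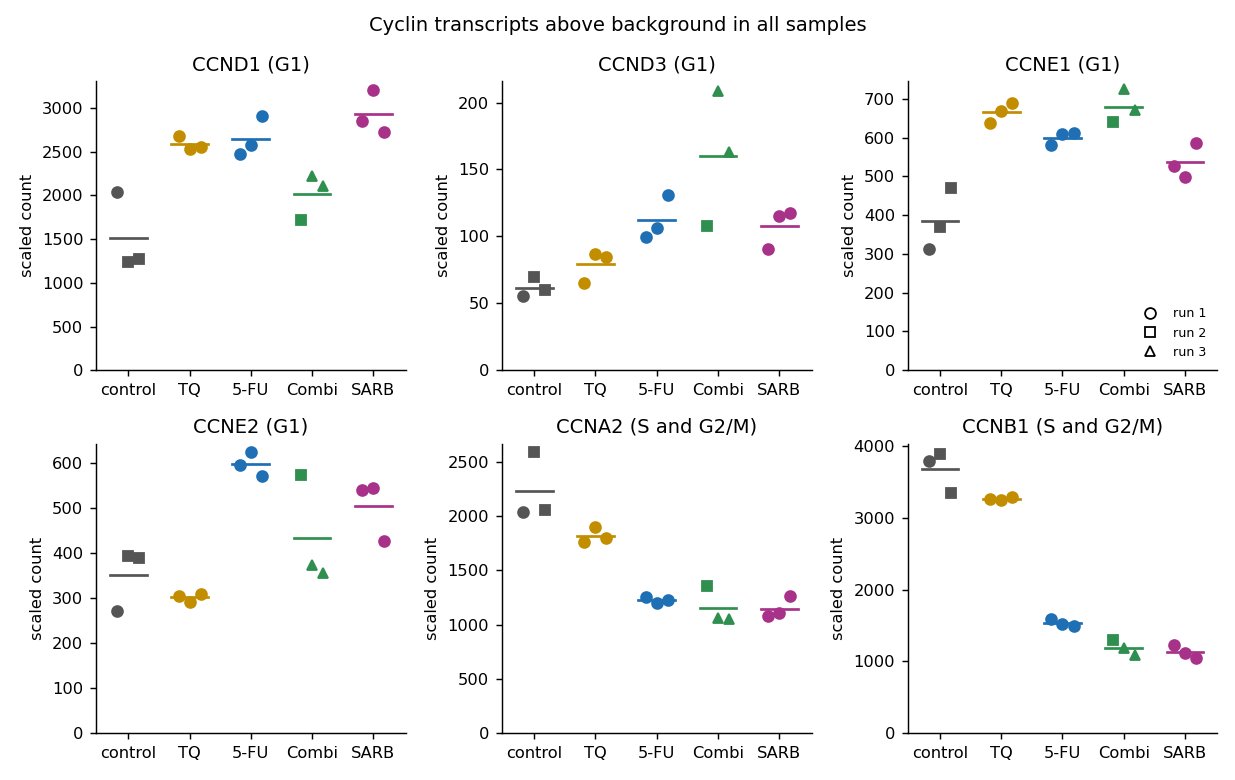
Scaled counts of the 6 cyclins above background in every sample, 1 point per sample and a line at each group mean, with symbols for the runs. CCNB1 lies between 1047 and 1587 in 5-FU, Combi and SARB and between 3249.8 and 3895 in control and TQ, while CCND1, CCND3 and CCNE1 have their lowest mean in control.

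Cyclin D1, encoded by CCND1, activates CDK4 and CDK6 and is a known target of WNT signaling. Its scaled counts were 2034, 1233 and 1276 in control, 2679, 2528 and 2551 in TQ, and 2471, 2576 and 2907 in 5-FU. They were 1723, 2218 and 2106 in Combi and 2855, 3210.5 and 2730.3 in SARB. Every sample of TQ, 5-FU and SARB exceeded the highest control, whereas Combi overlapped control. CCND1 rose by log2 0.77 ± 0.15 in TQ (edgeR adjusted p = 8.0e-04), 0.81 ± 0.15 in 5-FU (0.00032) and 0.95 ± 0.15 in SARB (4.7e-05), or 1.71-fold, 1.75-fold and 1.94-fold.

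Control 1, the only control of run 1, was higher than the other two, and with run as a block the 3 values were 0.35, 0.38 and 0.53 and were no longer called. That fit sets TQ, 5-FU and SARB against control 1 alone. In Combi the log2 difference of 0.41 (adjusted p = 0.044) missed the 1.5-fold limit, and without control 1 it was 0.69 and was called.

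CCND3 encodes cyclin D3, a further partner of CDK4 and CDK6. It had 55.3, 69.9 and 59.8 scaled counts in control, 65.3, 87.1 and 84.9 in TQ, and 99.8, 106 and 131 in 5-FU. It had 108, 208 and 163 in Combi and 90.8, 115 and 117 in SARB. All 5-FU, Combi and SARB samples were above control, and TQ overlapped it. CCND3 was 1.81-fold higher in 5-FU (log2 0.86 ± 0.23, edgeR adjusted p = 0.0067), 2.62-fold in Combi (1.39 ± 0.22, 3.5e-05) and 1.74-fold in SARB (0.80 ± 0.22, 0.0081). The Combi mean of 159.8 ± 50.3 (n = 3) had the widest spread of the 5 groups, with Combi 1 of run 2 below both Combi samples of run 3. With run as a block, which leaves Combi 1 to stand for the group, the value was 0.73 and not called. In TQ it was 0.39 (adjusted p = 0.20), and 0.87 and called after TMM normalization.

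Cyclin E1, encoded by CCNE1, activates CDK2 at the G1/S transition. Its scaled counts were 314, 368 and 471 in control, 638, 669 and 689.7 in TQ, and 579.6, 609 and 611 in 5-FU. They were 640.2, 725 and 671 in Combi and 527, 499 and 586 in SARB. No treated sample overlapped control. CCNE1 rose 1.73-fold in TQ (log2 0.79 ± 0.13, edgeR adjusted p = 0.00016), 1.56-fold in 5-FU (0.64 ± 0.13, 0.00064) and 1.77-fold in Combi (0.82 ± 0.13, 3.5e-05), and these were called with TMM and with run as a block too. The 5-FU call was lost without control 1 (0.52). In SARB the log2 difference was 0.49 (adjusted p = 0.0058), under the 1.5-fold limit, and it was called with TMM (0.86), with run as a block (0.78) and without control 3 (0.66).

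CCNE2 encodes cyclin E2, which also activates CDK2, and it did not follow CCNE1 in TQ. Its scaled counts were 271, 392 and 388 in control, 305, 289.9 and 309 in TQ, and 596, 624 and 569 in 5-FU. They were 572, 374 and 355 in Combi and 539.9, 543 and 426 in SARB. The 3 5-FU samples and the 3 SARB samples were above control, and TQ and Combi overlapped it. The rise in 5-FU was 1.70-fold (log2 0.77 ± 0.17, edgeR adjusted p = 0.0014). In SARB the log2 difference was 0.51 (0.021), under the fold limit, and it was called with TMM (0.86), with run as a block (0.89) and without control 2, control 3 or SARB 3 (0.60, 0.59 and 0.63). In Combi it was 0.29 (0.24), with Combi 1 of run 2 higher than both Combi samples of run 3. In TQ it was -0.22 (0.31), while TMM (0.25) and run as a block (0.15) gave the other sign.

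Counted over the 10 cyclins, TQ had 2 called higher (CCND1 and CCNE1), where 3.42% of all genes were called higher, and 0 called lower, where 21.6% of all genes were. For the latter, 2 cyclins had an unadjusted p under 0.05 in edgeR, and DESeq2 called 0 with 0 at that unadjusted p. In 5-FU, 4 were called higher (CCND1, CCND3, CCNE1 and CCNE2; background 10.1%) and 2 lower (background 10.1%). In Combi, 2 were called higher (CCND3 and CCNE1; background 13.6%) and 2 lower (background 6.58%). In SARB, 2 were called higher (CCND1 and CCND3; background 8.63%) and 3 lower with CCNB3 (background 20%). All 4 comparisons share the same 3 control samples, so their counts are not independent of each other.

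The treated and control samples did not overlap for 4 of the 10 cyclins in TQ, for 6 in 5-FU, for 4 in Combi and for 7 in SARB. Among all genes 45.6%, 44.1%, 36.0% and 42.1% did not overlap in these comparisons. Under housekeeping scaling the all-gene median was below 0 in each treatment (log2 -0.47, -0.27, -0.10 and -0.41 in the same order), and TMM brought it to between -0.07 and -0.02. The medians of the 10 cyclins were -0.25, -0.30, -0.15 and -0.37 with housekeeping scaling, and 0.21, -0.12, -0.05 and -0.06 with TMM.

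**Figure D3:**
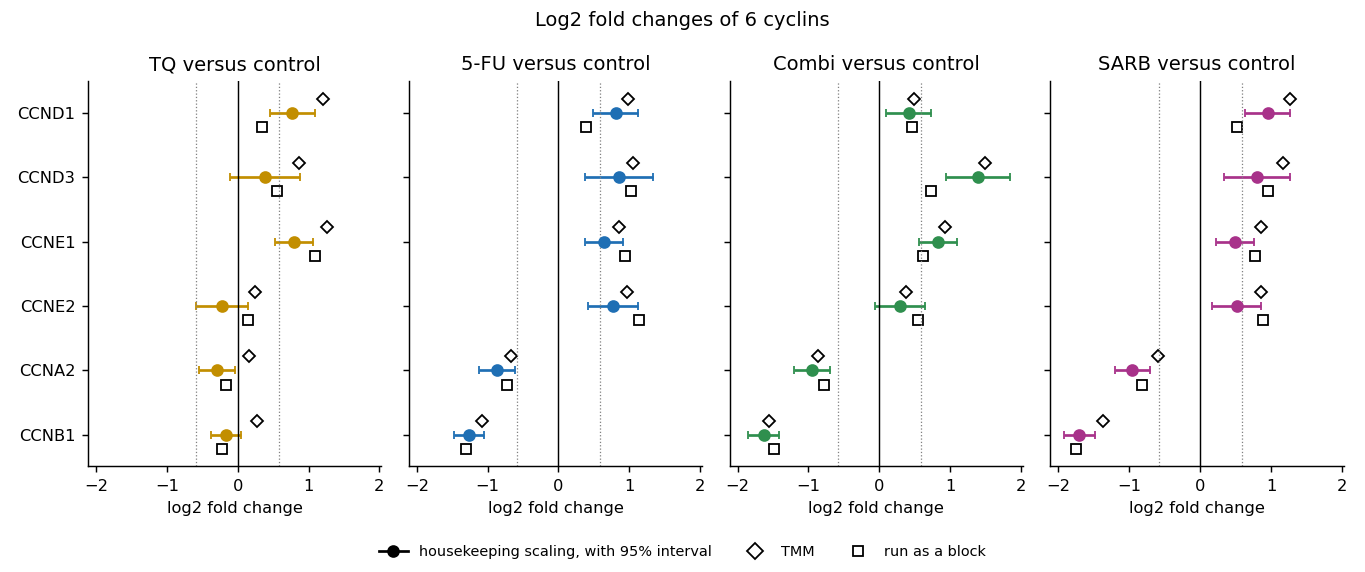
Log2 fold changes against control of the 6 cyclins, with filled points and 95% intervals for housekeeping scaling, open diamonds for TMM and open squares for the fit with run as a block, and dotted lines at 1.5-fold. CCNA2 and CCNB1 lie below the lower dotted line in 5-FU, Combi and SARB in all 3 fits, and CCND1 moves inside the upper line in TQ, 5-FU and SARB with run as a block.

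A ratio of 2 genes within 1 sample does not change with the scaling of that sample. The mean log2 count of the 4 G1 cyclins minus that of CCNA2 and CCNB1 was -3.15, -3.25 and -2.93 in the control samples and -2.48, -2.45 and -2.39 in TQ. It was -1.38, -1.25 and -1.16 in 5-FU, -1.37, -0.91 and -1.003 in Combi, and -1.14, -0.98 and -1.11 in SARB. No treated sample overlapped control, TQ lay between control and the other treatments, and the values of 5-FU, Combi and SARB overlapped. Relative to the control mean the ratio was 1.59-fold in TQ, 3.60-fold in 5-FU, 4.05-fold in Combi and 4.10-fold for SARB, which on the log2 scale is 0.67, 1.85, 2.02 and 2.03. Over all 9 members of both classes, with those at or near background, it was 1.31-fold, 2.14-fold, 2.48-fold and 2.73-fold. With 1 sample left out the log2 values stayed within 0.60 to 0.76, 1.78 to 1.94, 1.92 to 2.15 and 1.97 to 2.12. Within run 1, where control 1 stood at -3.15, all 9 treated samples were above it. These ratios are descriptions, and no p-value was computed for them.

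Single pairs varied around that mean. Of the 8 pairs of a G1 cyclin with CCNA2 or CCNB1, the largest shift against control was that of CCND3 over CCNB1 in Combi at 7.78-fold, and in SARB it was that of CCND1 over CCNB1 at 6.47-fold. CCNE2 over CCNB1 in TQ was at 0.979-fold, with its samples overlapping control. CCNA2 and CCNB1 also changed relative to each other. The log2 ratio of CCNA2 over CCNB1 exceeded its control mean by 0.41 in 5-FU, 0.68 in Combi and 0.75 in SARB, with no overlap with control, and differed from it by -0.12 in TQ with overlap.

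**Figure D4:**
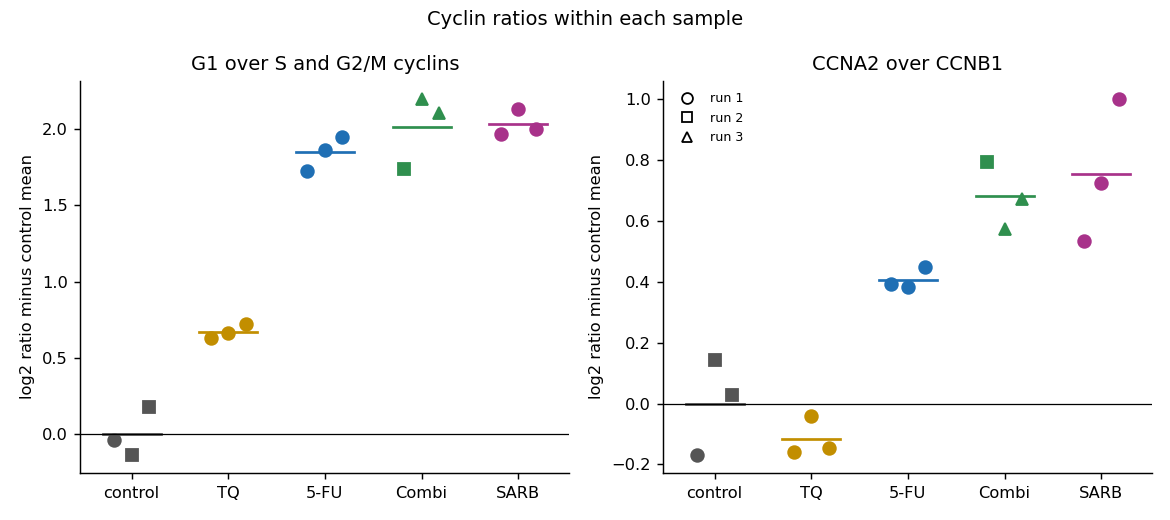
Ratios within each sample, on the log2 scale and minus the control mean, with the mean of CCND1, CCND3, CCNE1 and CCNE2 over the mean of CCNA2 and CCNB1 on the left and CCNA2 over CCNB1 on the right; points are samples, lines are group means and symbols are runs. On the left the group means stand at 0.67 (TQ), 1.85 (5-FU), 2.02 (Combi) and 2.03 (SARB).

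At the matched dose of 35 µM, the hybrid SARB was set against its 2 parent drugs given together. CCND3 was called lower in SARB than in Combi, at a log2 difference of -0.59 (95% interval -0.98 to -0.19, edgeR adjusted p = 0.038), where 11.2% of all genes were called lower. That call was not stable, since TMM gave -0.32, not called, and it was lost without Combi 2, Combi 3, SARB 1 or SARB 3 (-0.35, -0.58, -0.48 and -0.67). No cyclin was called higher by edgeR, where 0.959% of all genes were. CCND1 came closest at 0.54 (0.23 to 0.85, adjusted p = 0.017), the only cyclin higher at an unadjusted p under 0.05, with every SARB sample above every Combi sample. DESeq2 called that 1 gene (0.85), as did TMM (0.79) and the fits without Combi 2 (0.61) or SARB 3 (0.59). Run as a block gave 0.23 for CCND3 and 0.07 for CCND1. No run held both groups, so that fit links them only through Combi 1 and the controls. It cannot decide either difference.

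The other 4 cyclins above background were not called between SARB and Combi. Under housekeeping scaling the log2 difference was -0.0049 for CCNA2 (95% interval -0.26 to 0.25), -0.07 for CCNB1 (-0.29 to 0.14), -0.34 for CCNE1 (-0.59 to -0.08, adjusted p = 0.063) and 0.22 for CCNE2 (-0.12 to 0.56). For CCNA2 and CCNB1 these intervals leave out a 1.5-fold difference in either direction under this scaling only. TMM gave 0.27 for CCNA2 and 0.19 for CCNB1, for which no interval is given. For CCNE1 every SARB sample was below every Combi sample, and TMM gave -0.06. No run held samples of both groups, so run and treatment cannot be told apart in this pair. Among all genes 33.8% did not overlap between SARB and Combi.

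Set in order of their means under housekeeping scaling, the groups gave 1 sequence for CCNA2 and CCNB1 and another for each G1 cyclin. CCNB1 rose from SARB over Combi, 5-FU and TQ to control, with overlap only between SARB and Combi. CCNA2 gave the same sequence, with SARB, Combi and 5-FU overlapping in turn. CCND1 went from control over Combi, TQ and 5-FU to SARB, and the neighbors that did not overlap were Combi and TQ. CCND3 went from control over TQ, SARB and 5-FU to Combi, with a gap between TQ and SARB. CCNE1 went from control over SARB, 5-FU and TQ to Combi, with gaps above control and between 5-FU and TQ. CCNE2 went from TQ over control, Combi and SARB to 5-FU, with a gap only below 5-FU. Beyond SARB and Combi these orders set different doses side by side. With TMM the log2 fold changes of CCNA2 were -0.87 in Combi, -0.67 in 5-FU, -0.60 in SARB and 0.17 in TQ. Those of CCNB1 were -1.55, -1.07, -1.37 and 0.28 for the same groups. CCNA2 and CCNB1 thus no longer shared 1 sequence with TMM.

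Across the 15 samples, CCNA2 and CCNB1 had a Pearson r of 0.95 on log2 scaled counts. Both were negatively correlated with each of the 4 G1 cyclins, from -0.45 (CCNB1 with CCNE1) to -0.82 (CCNB1 with CCND3). Among the G1 cyclins r ranged from 0.14 (CCNE1 with CCNE2) to 0.64 (CCND3 with CCNE1). These values describe 15 samples that share groups, runs and scaling.

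Among the other 404 genes above background throughout, the 3 whose pattern was most like CCNB1 were the histone H3 gene HIST1H3H (r = 0.98), MCM7 of the replicative helicase (0.97) and CCNA2. HIST1H3H had log2 fold changes of -3.35, -3.51 and -3.59 for 5-FU, Combi and SARB, each called lower, and was at -0.22 in TQ, not called. It belongs to a family of near-identical copies, so which copy its probe counted is uncertain. CCNA2 was closest to GTF2H3 of the general transcription factor TFIIH (0.96), MCM7 (0.96) and MCM4 (0.95). The G1 cyclins each had other nearest genes. CCND1 was most like IKBKG, GNAQ and LAMA5 (0.85, 0.85 and 0.84), and CCND3 was most like SOCS3, JUN and FLNC (0.91, 0.91 and 0.90). CCNE1 was most like TNFRSF10D, THBS1 and FGF2 (0.85, 0.80 and 0.78), and CCNE2 was most like BCL2L1, DDB2 and STAT3 (0.86, 0.86 and 0.86). With TMM, CCND1 kept 1 of its 3 genes, CCNB1 and CCNE2 kept 2, and the others kept all 3.

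Of the 6 cyclin-dependent kinases listed, CDK2, CDK4 and CDK6 were on the panel, and the single call against control was CDK4 in Combi, lower at log2 -0.99 (edgeR adjusted p = 0.00036), which was lost with run as a block (-0.38). That block called CDK4 lower in SARB (-0.71), and TMM and DESeq2 called CDK6 higher in TQ (1.003 and 1.04, against 0.56 and not called with housekeeping scaling). The remaining cell cycle lists covered CDK inhibitors, CDK phosphatases and inhibitory kinases, E2F and RB, cyclin turnover, DNA replication, mitosis and checkpoint kinases, and all 8 lists together held 83 genes, 40 of them on the panel. Of these 40, TQ had 0 called higher and 5 lower (12.5%), which is below the 21.6% of all genes called lower. In 5-FU there were 4 higher, near the background of 10.1%, and 9 lower (22.5%, background 10.1%). Combi had 4 higher (background 13.6%) and 10 lower (background 6.58%), and SARB had 2 higher (background 8.63%) and 11 lower (27.5%, background 20%). The split depended on the scaling, since TMM gave 6 higher and 0 lower in TQ, 5 and 5 in 5-FU, 5 and 9 in Combi, and 5 and 3 in SARB. All-gene shares were taken from the unblocked edgeR fit with housekeeping scaling only. All counts of called genes under the alternatives therefore have no background beside them. The median of the 40 was -0.29, -0.19, -0.28 and -0.37, against the all-gene medians of -0.47, -0.27, -0.10 and -0.41.

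CDKN1A encodes p21, the CDK inhibitor induced by p53. It had 683, 797 and 1197 scaled counts in control, 468, 477 and 441 in TQ, and 3414, 3698 and 4999 in 5-FU. It had 5197, 6113 and 5865 in Combi and 3733, 5352 and 4942 in SARB. No treated group overlapped control, and TQ lay on the opposite side from the other 3. CDKN1A rose by log2 2.18 in 5-FU (edgeR adjusted p = 5.1e-09), 2.68 in Combi (1.7e-10) and 2.39 in SARB (1.2e-09). In TQ it was called lower at -0.95 (0.00067), a call lost with TMM (-0.47), run as a block (-0.56) and DESeq2 (-0.43).

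CDC25C, the phosphatase that activates CDK1 with cyclin B at mitotic entry, was the only one of the 40 called in the same direction in all 4 treatments. It had 184, 193 and 184 scaled counts in control and between 74.4 and 121 in the 12 treated samples. The log2 fold changes were -0.79 (TQ), -1.19 (5-FU), -0.96 (Combi) and -1.18 (SARB), and the TQ call was lost with TMM (-0.32) and DESeq2 (-0.29).

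Of the 7 DNA replication genes on the panel, 3 were lower in 5-FU, 4 in Combi and 3 in SARB, where 10.1%, 6.58% and 20% of all genes were. TMM left 1, 4 and 1, since MCM4 (-0.41 in 5-FU and -0.37 in SARB) and MCM7 (-0.54 and -0.57) were no longer called there, and run as a block left 2 in each. MCM5, of the replicative helicase, fell by 0.85, 0.77 and 1.12 on the log2 scale in these 3 treatments, and in TQ it was at 0.00. Its Combi call was lost with run as a block (-0.60). PCNA, the sliding clamp of DNA replication, was instead called higher in Combi (0.72, and 0.58 and not called with run as a block) and lower in TQ (-0.70, and -0.25 and not called with TMM). In SARB it was at 0.52, not called, and called higher with TMM (0.84) and DESeq2 (0.84). Of the 5 mitosis genes, 3 were lower in 5-FU and 2 each in Combi and SARB, against the same backgrounds. With TMM, CDC14A in 5-FU (-0.55) and PTTG2 in SARB (-0.55) were not called, which left 2, 2 and 1. TTK, the spindle checkpoint kinase, fell by 0.87, 0.78 and 0.97 on the log2 scale, with each call kept under TMM and run as a block. Of the 5 cyclin turnover genes, FBXW7, which targets cyclin E for degradation, was higher in 5-FU (0.82) and Combi (0.69, a call lost without control 1 or Combi 1), and with TMM and DESeq2 it was called higher in TQ (0.95 and 0.98) and SARB (0.87 and 0.89) too. SKP2, which targets p27, was lower in SARB (-0.72), and not called with TMM (-0.38) or run as a block (-0.57). CDKN1B, the gene of p27, was called lower in SARB (-0.68, and -0.34 and not called with TMM). It was also called lower in Combi (-0.92, and -0.35 and not called with run as a block). CDK4, CDK6, MCM5, PCNA, TTK, CDC14A, PTTG2, FBXW7, SKP2 and CDKN1B were picked out after their values were seen.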

How the data were processed

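RNA of HCT116 cells (50 ng per sample, 3 samples in each of 5 groups) was measured with the NanoString PanCancer Pathways panel. The authors deposited raw counts per probe and normalized signal values, made with nSolver Analysis Software 3.0 and the geometric mean of the housekeeping genes. For every sample, 100% of the deposited normalized signal values lay within 1% of the background-subtracted count times 1 factor. A deposited table of fold changes and p-values was not used.

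Raw counts of 730 endogenous genes were scaled by the geometric mean of 40 housekeeping genes and fitted over all 5 groups with edgeR 4.0.16 (quasi-likelihood test, Benjamini-Hochberg adjustment, tested on simulated data), calling genes at adjusted p of at most 0.05 and at least 1.5-fold. Standard errors were derived from that fit as the absolute log2 fold change over the square root of its F statistic. The 95% intervals use them with the t distribution. No low-count filter was set. DESeq2 1.42.0, limma 3.58.1, TMM, run and replicate blocks, a filter (20 counts in 3 samples), background subtraction and leaving out single samples were alternatives. The run block compares TQ, 5-FU and SARB with control 1 only, and Combi 1 alone stands for Combi. Total endogenous counts of 135017 to 607782 limit the precision of genes near the 3.12 to 16.4 counts of the negative probes.

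The 10 cyclins, their 2 classes and the gene lists were chosen with earlier results of these data known. The named genes are all cyclins, the listed cell cycle genes called in the same direction in all 4 treatments, CDKN1A, and the 3 genes with the pattern most like each detected cyclin (Pearson r). Replicate numbers come from the sample titles. Pairing by these numbers was not assumed. The deviations of 10 of 30 same-numbered pairs correlated over 0.1 (r from -0.50 to 0.47), which cannot show whether the samples were paired. Promoter sequences are RefSeq's, GRCh38.p14. The genome build behind the probes was not given in the sources used here.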

Additional observations from a re-analysis of the deposited data

How the results depend on the processing

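The called falls of CCNA2 and CCNB1 in 5-FU, Combi and SARB were kept under every alternative run, and the calls of CCNE1 in TQ and Combi, CCNE2 in 5-FU and CCND3 in 5-FU and SARB were kept too. The sign of some values depended on the scaling, on the run block or on a single sample left out. These values were uncalled, except CCND3 in SARB against Combi. TMM and DESeq2 gave 0.17 and 0.20 for CCNA2, 0.28 and 0.31 for CCNB1 and 0.25 and 0.28 for CCNE2 in TQ, where run as a block gave 0.15 for CCNE2. Between SARB and Combi they gave 0.27 and 0.35 for CCNA2 and 0.19 and 0.26 for CCNB1. DESeq2 gave 0.014 for CCNE1 there, and run as a block gave 0.17 for CCNE1 and 0.23 for CCND3. In the same pair CCNA2 was at 0.12 without Combi 1, 0.040 without SARB 1 and 0.022 without SARB 2. Without SARB 3 it kept its sign, at -0.081. The cause was not tested.

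Counts of called cyclins moved as follows. Run as a block left 1 higher in TQ and 1 in Combi. TMM and DESeq2 each gave 4 higher in SARB and 1 higher in SARB against Combi. CCND3, the 1 cyclin lower in SARB against Combi, became 0 with TMM, the replicate block, background subtraction, DESeq2 and limma. Run as a block cannot decide that pair, since no run held both groups. With 1 sample left out, lower calls in TQ were 0 to 1 (1 without TQ 3, CCND2 near background), higher calls in SARB 2 to 4 (4 without control 3), higher calls in SARB against Combi 0 to 1 (1 without Combi 2 or SARB 3) and lower calls there 0 to 1. Over all members of each class, near-background genes included, the log2 ratio of G1 over S and G2/M cyclins was 0.39 (TQ), 1.10 (5-FU), 1.31 (Combi) and 1.45 (SARB). With TMM, CCND1 kept 1 of its 3 most similar genes.

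With the replicate number as a block, CCND3 in SARB against Combi was at -0.55 and no longer called, so the count went from 1 to 0, and no other cyclin call changed. Of the 15 samples, 4 had deviations that correlated best with their own number. CCND2 was not tested under the low-count filter. Depth limits CCNA1, CCNB3, CCND2 and CCNO, with 1 to 55 raw counts.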
